A study of Mus musculus with 2 samples.

Results

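A set of 9 genes of fatty acid binding and uptake was followed in the liver of 1 adult mouse. They code for the intracellular fatty acid binding proteins Fabp1, Fabp2, Fabp4, Fabp5 and Fabp7, the acyl-CoA binding protein Dbi, and the membrane proteins Cd36, Slc27a1 and Slc27a4. They were chosen by symbol, and all 9 were found among the 69691 entries of the gene table. The animal was a female of the inbred C57BL/6J strain, aged 10 weeks and labelled as adult, with no treatment, diet or genetic change named. RNA selected for polyA tails was sequenced as 2 libraries of the same liver, which the labels number as technical replicates. Replicate 1 is library 1 below and replicate 2 is library 2. The labels place the run of library 2 in 2015 and give no date of its own for library 1. Both libraries form 1 group. Each mean and SD (n = 2) is therefore technical spread within 1 animal, and a library difference cannot be told apart from a difference in date or handling.

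Long-chain fatty acids are poorly soluble in water and are carried in the cell by small binding proteins with a barrel fold. Cd36 and the Slc27a proteins promote entry at the cell surface, and Slc27a proteins also have acyl-CoA synthetase activity. Synthetases join the fatty acid to coenzyme A, and Dbi binds the acyl-CoA esters that result. In the hepatocyte, Fabp1 is the abundant cytosolic binding protein, and fatty acid sensing nuclear receptors such as Ppara are known to raise several of these genes.

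The library totals were 23309905 expected counts in library 1 and 19525500 in library 2. Mitochondrially encoded genes took 40.7% of TPM, a length-normalised share of all transcripts, in library 1 and 14.9% in library 2, so a nuclear gene's TPM was lowered more in library 1. The hepatocyte markers read high in both libraries, with all 8 listed at 1 TPM or more. In mean level they were led by Alb, the serum albumin gene (22689.5 and 49848 TPM), and Cyp2e1 (3731 and 5139.97). In library 2 Apoa1 (5423.6 TPM) lay above Cyp2e1. In tissue RNA, fewer cells of a type and less RNA per cell cannot be told apart.

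The members differ in base composition, and the comparison of the libraries below refers back to it. For each gene a 60-base coding stretch of its leading transcript is shown, taken in frame as the first with the GC content closest to that of the whole coding sequence. Each runs 5′ to 3′ on the coding strand, from GENCODE M21 transcripts, with G and C in capitals.
Cd36: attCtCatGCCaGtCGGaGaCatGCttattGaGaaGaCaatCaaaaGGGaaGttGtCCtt
Fabp2: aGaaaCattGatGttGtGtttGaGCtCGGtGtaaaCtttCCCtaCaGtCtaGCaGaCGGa
Fabp7: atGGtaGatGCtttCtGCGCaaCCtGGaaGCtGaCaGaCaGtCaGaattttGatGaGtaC
Fabp1: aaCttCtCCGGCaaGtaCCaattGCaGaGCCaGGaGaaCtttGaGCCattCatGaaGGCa
Fabp4: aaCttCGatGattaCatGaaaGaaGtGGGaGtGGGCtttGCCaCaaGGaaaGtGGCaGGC
Dbi: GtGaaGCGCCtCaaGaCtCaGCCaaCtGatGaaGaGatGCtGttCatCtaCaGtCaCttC
Fabp5: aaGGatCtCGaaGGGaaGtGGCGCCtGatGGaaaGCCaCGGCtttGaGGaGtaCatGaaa
Slc27a4: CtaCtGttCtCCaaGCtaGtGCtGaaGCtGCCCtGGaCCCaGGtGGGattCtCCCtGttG
Slc27a1: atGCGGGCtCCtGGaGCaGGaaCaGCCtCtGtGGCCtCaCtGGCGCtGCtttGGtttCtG

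The GC content of the whole coding sequence ran from 41.5% in Cd36 and 43.4% in Fabp2, through 45.7% in Fabp7, 48.0% in Fabp1, 48.5% in Fabp4, 48.7% in Dbi and 51.1% in Fabp5, to 56.8% in Slc27a4 and 61.2% in Slc27a1. The stretches lie at coding bases 73 to 132 of Cd36, 169 to 228 of Fabp2, 1 to 60 of Fabp7, 4 to 63 of Fabp1, 46 to 105 of Fabp4, 37 to 96 of Dbi, 13 to 72 of Fabp5, 31 to 90 of Slc27a4 and 1 to 60 of Slc27a1. The coding sequences of the 5 binding proteins were 57.8% to 67.6% identical over the aligned bases in pairs, with Fabp1 and Fabp4 the least alike and Fabp4 and Fabp7 the most. Slc27a1 and Slc27a4 were 68.8% identical. No pair of binding protein genes shared a run of 25 bases in the transcripts compared, and Slc27a1 and Slc27a4 shared such runs for 0.0722% of those of Slc27a1.

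Fabp1 was the highest of the 9 genes in both libraries. Fabp1, the liver fatty acid binding protein (ENSMUSG00000054422.7, GRCm38 chromosome 6, 71199827 to 71205023, plus strand), read 2625 TPM in library 1, and library 2 gave 8641 (mean 5633 ± 4254, SD, n = 2). These rest on 22150 and 48758 expected counts on a single annotated transcript of 553 bases. Among nuclear protein-coding genes it ranked 15 in library 1 and 7 in library 2. Fabp1 alone held 78.3% of the summed TPM of the 9 genes in library 1 and 84.3% in library 2. By the smallest distance in log2(TPM + 0.1) over the 2 libraries, the nuclear protein-coding genes most like it in level were Ahsg (distance 0.39) and Serpina1b (0.41).

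The promoter window of Fabp1 is printed because this gene carried most of the RNA of the set. It runs from 250 bases before to 50 bases after the RefSeq start, on the plus strand of GRCm38.p6, at chr6:71199629-71199928, and capitals mark the motif matches.
Fabp1 promoter: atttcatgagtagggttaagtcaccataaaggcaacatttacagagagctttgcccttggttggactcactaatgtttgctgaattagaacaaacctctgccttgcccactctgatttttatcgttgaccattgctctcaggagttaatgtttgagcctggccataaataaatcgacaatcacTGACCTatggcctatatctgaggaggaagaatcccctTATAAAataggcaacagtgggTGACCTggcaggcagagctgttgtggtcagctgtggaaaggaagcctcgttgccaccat

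Both strands were searched for TATAAA (the TATA box), for AGGTCA (the core that many nuclear receptors bind) and for the direct repeat of that core with 1 base between, which overlaps it. Fabp1 held the TATA box 1 time. It held the nuclear receptor core 2 times, both on the minus strand, and printed as TGACCT. Among 32851 RefSeq windows of the same length, 13.6% held the TATA box, 16.3% held the core and 0.0396% held the direct repeat. The HNF1 site was in 0.00913% of these windows, the HNF3 core in 3.65%, the CCAAT box in 37.4% and the Sp1 box in 35.7%. No member's window held the direct repeat in its exact letters. Only exact matches were counted, so repeats that differ from it by 1 base were not looked for. The core was also found 1 time each in the windows of Cd36 and Fabp7, and the TATA box in no other member's. A match of letters is a description and not a site of binding. RefSeq windows matched 7 of the 9 genes. The windows of Fabp1 (45% GC), Fabp2 (38.7%) and Cd36 (43.0%) held 3 CpG dinucleotides each, against a median of 7 over all windows and a median GC content of 52.7%. Those of Slc27a4 (14 CpG), Slc27a1 (10 to 16 over 3 starts) and Dbi (22 to 28 over 2 starts) held more, and Fabp7 held 6.

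Fabp2 came second among the binding proteins, far below Fabp1. Fabp2, best known as the intestinal fatty acid binding protein (ENSMUSG00000023057.5, chromosome 3, 122895072 to 122899506, plus strand), read 70.7 and 80.35 TPM (mean 75.5 ± 6.84). Its counts ran the other way, with 1260 in library 1 and 964 in library 2. Fabp1 exceeded Fabp2 by 37.1 times in library 1 and 107.5 times in library 2 on the TPM scale. Of 8 enterocyte markers none reached 1 TPM in either library, and Cdx1, Cdx2, Lct, Fabp6 and Alpi had 0 counts in both. Sis, the sucrase-isomaltase gene, had 39 counts in library 1 and 0 in library 2, and Vil1 had 5 and 7.

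The 3 other binding proteins read under 30 TPM. Fabp5, found in skin and macrophages among other sites (ENSMUSG00000027533.10, chromosome 3, 10012548 to 10016607, plus strand), read 6.65 and 28.8 TPM from 153 and 395 counts. Fabp4, the binding protein of adipocytes, also found in macrophages and capillary endothelium (ENSMUSG00000062515.3, chromosome 3, 10204088 to 10208576, minus strand), read 5.68 and 10.1 TPM from 110 and 121 counts. Fabp7, known from brain glia (ENSMUSG00000019874.7, chromosome 10, 57784881 to 57788450, plus strand), read 3.87 and 4.2 TPM from 55 and 40 counts. All 3 were thus above 1 TPM in both libraries, and Fabp5 was the one whose libraries lay far apart.

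Fabp5 had the largest overlap in sequence with another gene. Its transcript has 25-base runs in common with 5 processed pseudogenes, the closest of which, Gm6166, holds 29.5% of them. All 5 had 0 counts in both libraries. Dbi shared 7.89% of its runs with a processed pseudogene, also at 0 counts. Slc27a1 shared up to 2.17% with genes that were expressed, the most with Ist1 (637 and 813 counts), and Cd36 under 0.1% with any gene. In the deposited tables Fabp5 was the only member with a posterior SD of its gene count above 0, at 1.51 counts in library 1 and 0.55 in library 2.

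Markers of cells that could carry these 3 genes were read beside them. Of 8 adipocyte markers, 2 were at 1 TPM or more in both libraries, Lpl (7.80 and 5.74 TPM) and Pparg (3.21 and 5.66). Adipoq, the adiponectin gene, read 0.20 and 0.65 TPM, Plin1 had 0 and 4 counts, and Lep had 0 in both. The summed adipocyte level was 11.4 TPM in library 1 and 15.35 in library 2. Macrophage markers summed to 99.95 and 257 TPM with 8 of 9 detected in both, led in mean level by Lyz2 (29.2 and 80.5) and Clec4f (7.82 and 59.55). Vsig4, the highest of them in library 1, went the other way (38.2 and 28.6). Of the 9 markers 5 were called higher and 1 lower in the comparison of libraries described below. Over all genes tested there, 32.7% were called higher and 23.8% lower. Endothelial markers summed to 33.6 and 150.3 TPM with 8 of 9 detected in both, led in mean level by Clec4g (13.8 and 60.3) and Gpihbp1 (1.56 and 25.8). Of these 9, 4 were called higher and none lower, beside the same background, and Kdr (6.66 and 9.42) was second in library 1. Glial markers read under 1 TPM for all 7, with Aqp4 (0.83 and 0.82) the highest by mean. None of 6 keratinocyte markers reached 1 TPM in either library. Krt10 (0.55 and 0.68) and Sfn (0 and 0.45) were highest, and Krt5, Krt14, Krt1 and Dsg3 had 0 counts in both. The part of these cells in the levels of Fabp4, Fabp5 and Fabp7 was not tested.

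Dbi was second to Fabp1 in both libraries. Dbi, the acyl-CoA binding protein (ENSMUSG00000026385.12, chromosome 1, 120113280 to 120121078, minus strand), read 584 and 1437 TPM (mean 1011 ± 603, n = 2), from 4969 and 8329 counts. It ranked 96 and 64 among nuclear protein-coding genes. Its share of the members' TPM was 17.4% in library 1 and 14.0% in library 2. With Fabp1 it made up nearly the whole summed TPM of the set. The genes most like Dbi in level were Wfdc21 (distance 0.25 in log2 TPM) and Orm1 (0.39).

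Cd36 led the membrane proteins, and it was the only member with a higher TPM in library 1. Cd36, a scavenger receptor that takes up long-chain fatty acids (ENSMUSG00000002944.11, chromosome 5, 17781690 to 17888801, minus strand), read 56.65 and 34.9 TPM (mean 45.8 ± 15.4, n = 2). Its counts were 4224 and 1758. Its transcripts are long, so it held 12.8% of the members' counts in library 1 against 1.69% of their TPM.

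The 2 transport proteins of the set were near the detection limit in library 1. Slc27a4 (ENSMUSG00000059316.2, chromosome 2, 29802634 to 29817522, plus strand) read 0.50 and 10.6 TPM from 44 and 625 counts. Slc27a1, best known from muscle and fat (ENSMUSG00000031808.6, chromosome 8, 71568882 to 71587302, plus strand), read 0.27 and 5.82 TPM from 16 and 234 counts. Of 8 striated muscle markers none reached 1 TPM in either library. Tnnt3 (0.05 and 0.59 TPM) and Tnnt2 (0.05 and 0.50) were the highest of them by mean, and Myh6 had 0 counts in both. Slc27a4 exceeded Slc27a1 by 1.85 times in library 1 and 1.82 times in library 2. The ratio in library 1 rests on 44 and 16 counts and is imprecise. Cd36 exceeded Slc27a4 by 113 times in library 1 and 3.29 times in library 2.

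**Figure D1:**
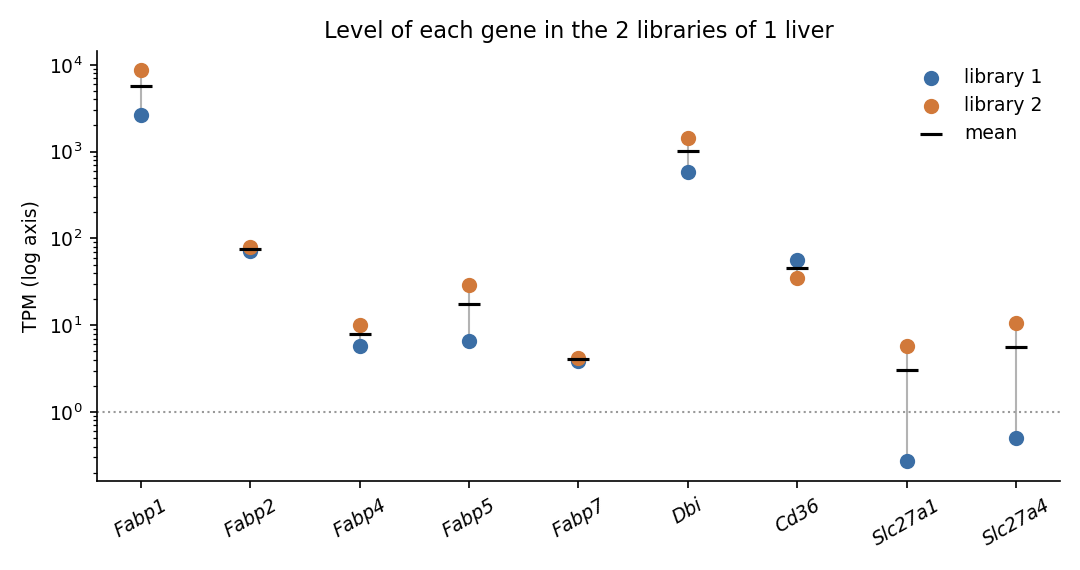
TPM of the 9 genes (log axis) in library 1 (blue) and library 2 (orange), with the mean as a black bar and 1 TPM as a dotted line. Fabp1 and Dbi stand above the rest in both libraries, and Slc27a1 and Slc27a4 lie under 1 TPM in library 1 alone.

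The order of mean TPM was Fabp1, Dbi, Fabp2, Cd36, Fabp5, Fabp4, Slc27a4, Fabp7 and Slc27a1. From Fabp1 down to Fabp5, each gene's lower library lay above the higher library of the next, so these 5 places held in both libraries. From Fabp5 down, the ranges of neighbours overlapped. Fabp4, Slc27a4, Fabp7 and Slc27a1 took a different order in each library, since Slc27a4 was eighth in library 1 and sixth in library 2. In sum the 9 genes read 3353 TPM in library 1 and 10253 in library 2 (mean 6803 ± 4879), or 0.892% and 1.39% of what nuclear protein-coding genes held together.

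Rescaling TPM so that nuclear protein-coding genes alone make up the total takes out the mitochondrial share and that of all other genes. On that scale Fabp1 read 6987 and 11719.9, Dbi 1554 and 1949, and Fabp5 17.7 and 39.1. Cd36 read 150.8 and 47.4 on the same scale, Fabp2 188 and 109, Fabp4 15.1 and 13.6, and Fabp7 10.3 and 5.70. Fabp2, Fabp4 and Fabp7 were thus higher in library 2 by deposited TPM, by 1.14, 1.77 and 1.09 times, and higher in library 1 on the rescaled scale. Slc27a1 (0.719 and 7.89) and Slc27a4 (1.33 and 14.4) stayed far higher in library 2.

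Most members were read as a single transcript. In 8 of the 9 genes, 1 transcript took at least 90% of the gene's TPM in both libraries, and Fabp1, Fabp2 and Slc27a1 have 1 annotated transcript each. The coding transcript Dbi-201 took 92.2% of the TPM of Dbi in library 1 and 95.2% in library 2. The noncoding Dbi-203 took 7.32% and 2.90%, and the other 5 transcripts of Dbi stayed under 1% each. The 2 retained-intron transcripts Dbi-205 and Dbi-206 had 4.39 and 0 counts in library 1 and 54.8 and 15.7 in library 2.

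The coding transcripts Fabp5-201 (90.85% and 96.0%) and Fabp4-201 (95.9% and 97.9%) led their genes, beside a retained-intron transcript each. Those longer transcripts took more of the counts than of the TPM. Fabp5-202 held 27.7% of the counts of Fabp5 in library 1 and 13.6% in library 2, and Fabp4-202 held 19.6% and 11% of those of Fabp4. The share was lower in library 2 for both. Fabp7-201 took 97.5% and 100% of Fabp7, and Slc27a4-201 100% and 98.5% of Slc27a4.

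Cd36 was the one gene divided over several transcripts. All 4 are labelled protein-coding, and Cd36-204 took 44.65% of its TPM in library 1 and 42.0% in library 2. Cd36-202 took 29.2% and 38.0%, Cd36-203 14.0% and 9.67%, and Cd36-201 12.1% and 10.3%. Their order by mean share put Cd36-204 first and Cd36-202 second in both libraries. The estimates are uncertain, since the deposited posterior SD of the count of Cd36-202 was 169.6 on 1233 counts in library 1 and 70.0 on 668.5 in library 2. The largest shift of any member's transcript was 8.79 percentage points, for Cd36-202. With 1 library on each side these shifts have no test.

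**Figure D2:**
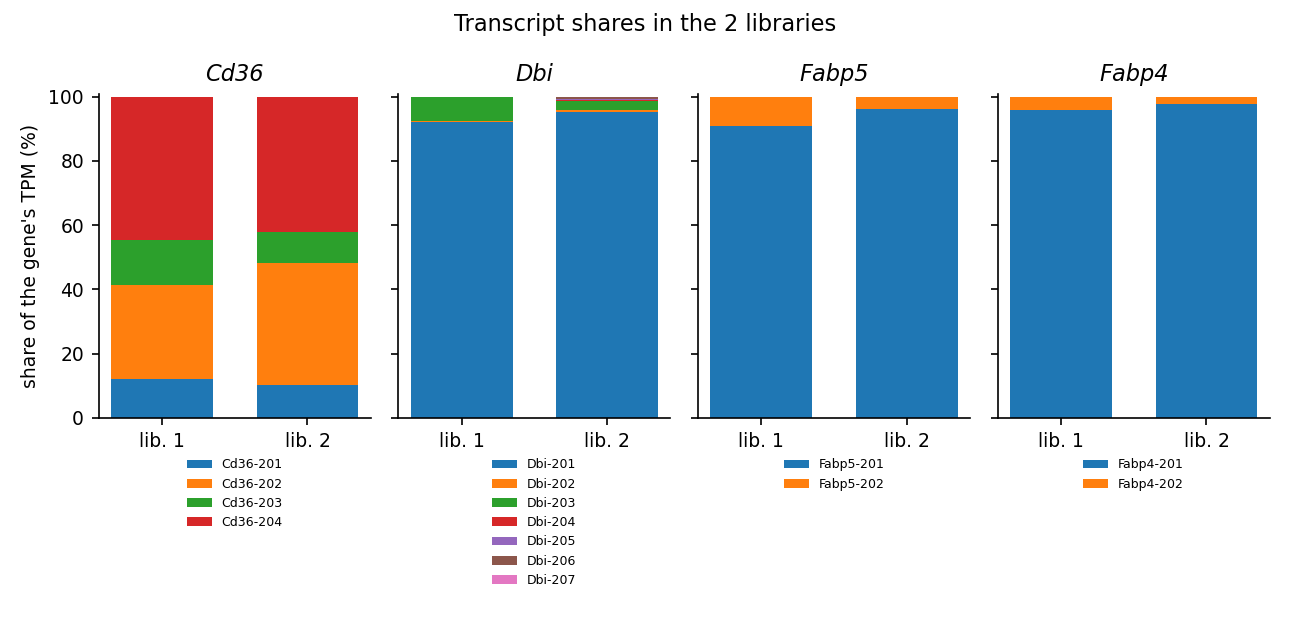
Share of each gene's TPM (%) held by its annotated transcripts in library 1 and library 2, as stacked bars for Cd36, Dbi, Fabp5 and Fabp4. Cd36 is divided over 4 transcripts, while 1 transcript holds over 90% of each of the other 3 genes.

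The counts of the 2 libraries were then compared across all genes. Counts were scaled by the trimmed mean of M-values (TMM), and a gene was called when its log2 fold of library 2 over library 1 was at least 1 in size and its Benjamini-Hochberg adjusted p from a two-sided exact binomial test was under 0.05. Such a test sets one library's reads against the other's and says nothing of conditions. Its 95% intervals hold counting error only. Of the 9 members 3 were called higher in library 2, 1 was called lower and 5 were not called. Over all 12728 genes tested, 56.5% were called, 32.7% higher and 23.8% lower, so the members' share of calls lay near the background. The median log2 fold was 0.42 over the members and 0.04 over all genes tested.

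Slc27a1 and Slc27a4 were the 2 largest differences of the set. Slc27a1 went from 16 to 234 counts, which is 11.4-fold higher after scaling (log2 fold 3.51, interval 2.82 to 4.38). Slc27a4 went from 44 to 625 counts and was 11.3-fold higher (3.49, interval 3.06 to 3.98). Fabp5 was the third gene called higher, at a log2 fold of 1.04 with an interval of 0.77 to 1.32. Its lower bound lies under the call threshold of 1.

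Cd36 was the member called lower. It went from 4224 to 1758 counts, a log2 fold of −1.59 with an interval of −1.67 to −1.51. The remaining 5 genes lay within the threshold. Fabp1 had a log2 fold of 0.82 (0.79 to 0.84) and Dbi of 0.42 (0.37 to 0.47). Fabp2 had −0.71 (−0.83 to −0.59) and Fabp7 −0.77 (−1.41 to −0.17, adjusted exact binomial p = 0.0121). Of Fabp4, no difference was detectable at this depth (−0.18, interval −0.57 to 0.20, adjusted exact binomial p = 0.383).

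The direction of several members depended on the scaling. Under total-count scaling the median over all genes tested was 0.62 in place of 0.04, and 5 members were higher and 1 lower (background 41.9% and 7.49%, or 49.4% in all). Fabp1 (1.39) and Dbi (1.00) then passed the threshold, and Fabp4 turned to 0.39. By the ratio of TPM + 0.1, where the median over all genes was 0.84, 5 members were past the fold upward and none downward (background 46.3% and 2.63%, or 49.0% in all). Fabp2 (0.18), Fabp4 (0.81) and Fabp7 (0.12) then had a positive sign, and Cd36, at −0.70, was no longer past the fold. Slc27a1, Slc27a4 and Fabp5 were past the fold upward under all 3 scalings.

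**Figure D3:**
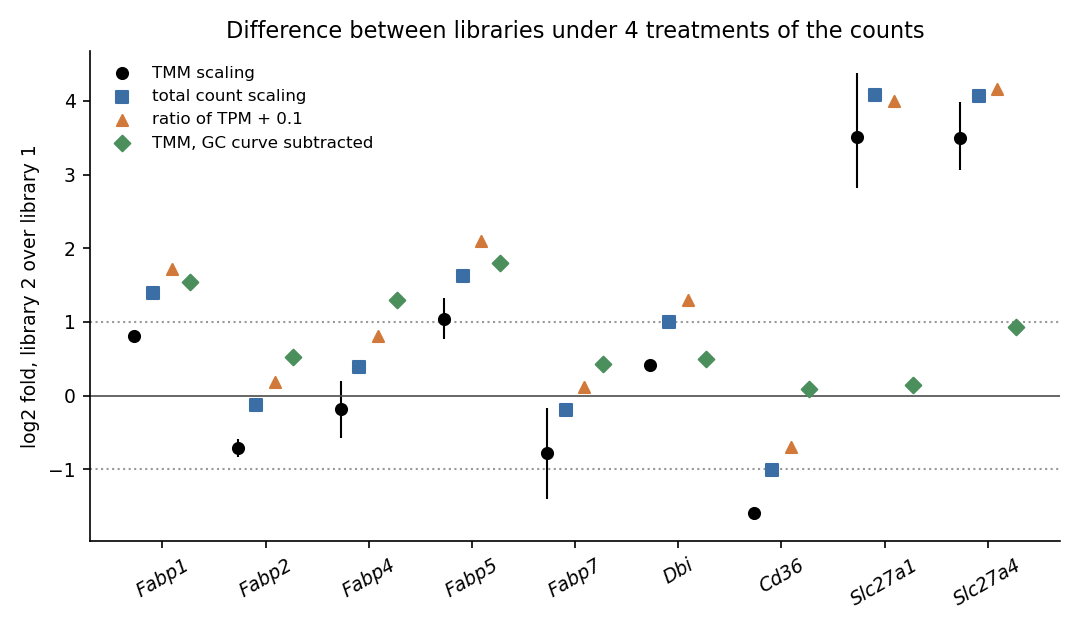
log2 fold of library 2 over library 1 for each gene under TMM (black, with 95% counting intervals), total-count scaling (blue), the ratio of TPM + 0.1 (orange) and TMM after a GC curve is subtracted (green). Dotted lines mark the fold of 1; Slc27a1 and Slc27a4 lie above 3 under the first 3 and under 1 after the curve.

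The library difference moved with the GC content of the transcripts. Across 12641 tested nuclear genes, which are not independent replicates, log2 fold and GC content of 1 annotated transcript a gene had a Spearman's rho of 0.888. Over the 9 members the rho was 0.867, and these points share the same libraries. In genes under 40% GC the median log2 fold was −1.67, and at 55 to 60% GC it was 2.63. Cd36, at 38.4% GC, was the member with the lowest fold, and Slc27a1, at 59.1%, the one with the highest. Slc27a4 had 56.8%, Dbi 49.0%, Fabp1 45.75%, Fabp5 45.6%, Fabp2 42.4% and Fabp4 40.3%. For Fabp7 the transcript used was Fabp7-202, with 42.6%, since the rule took the longest coding one; its leading transcript has 41.4%.

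A smoothed curve (loess) through fold against GC was subtracted to see which differences remained. After it, Cd36 (0.09), Slc27a1 (0.14) and Slc27a4 (0.94) were no longer past the threshold. Fabp5 (1.80), Fabp1 (1.55) and Fabp4 (1.30) were called higher, and Dbi (0.50), Fabp2 (0.52) and Fabp7 (0.43) were not called. So 3 of 9 members were higher and none lower, where 16.8% of the genes tested were called, 9.03% higher and 7.82% lower. The 3 called genes are intracellular binding proteins, as are Fabp2 and Fabp7, which were not called. In 7 of the 9 genes, called or not, the coding part is richer in GC than the leading transcript, by the most in Fabp4 (48.5% against 40.3%) and Fabp5 (51.1% against 45.6%). The part of that unequal composition in the values was not tested.

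**Figure D4:**
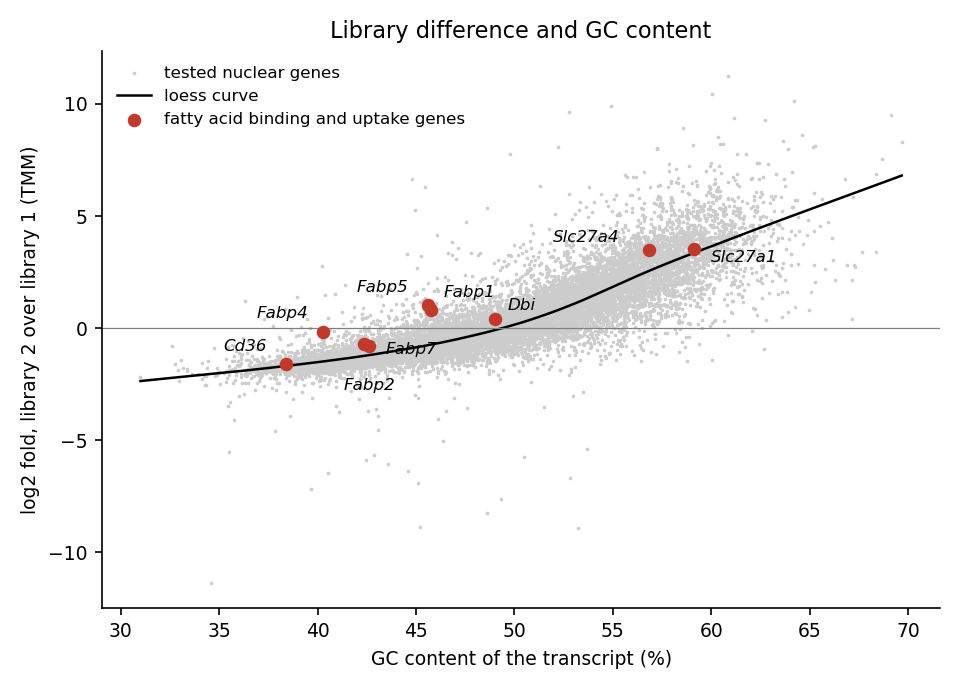
log2 fold of library 2 over library 1 (TMM) against transcript GC content (%) for tested nuclear genes (grey), with the loess curve (black) and the 9 genes (red). Cd36 and Slc27a1 lie close to the curve, and Fabp1, Fabp4 and Fabp5 lie above it by 1.30 to 1.80.

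Other genes of the pathway were read from lists. The log2 folds given for them are of TMM-scaled counts, and their sign can differ from the direction of the TPM. Among the other transport proteins, 2 of 4 were detected in both libraries. They were Slc27a2 (395 and 918 TPM), a very long-chain acyl-CoA synthetase, and Slc27a5 (145 and 1105 TPM), which activates bile acids. Both lay far above Slc27a1 and Slc27a4. Slc27a5 was called higher (log2 fold 2.67) and Slc27a2 was not called (−0.12). After the GC curve Slc27a5 was at 1.54 and Slc27a2 at −0.90. Slc27a3 had 0 and 8 counts and Slc27a6 7 and 5. Of 10 further genes of the lipid binding protein family, none reached 1 TPM in both libraries. Fabp9 read 0.44 and 0.66 TPM and Fabp12 0.06 and 0.17. Fabp3, Fabp6, Pmp2, Crabp1, Crabp2 and Rbp2 were without a count in either library. Their upper limit, set at 3 counts, corresponds to 0.129 CPM in library 1 and 0.154 CPM in library 2.

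In the lists that follow, counts of calls stand beside the same background of 32.7% higher and 23.8% lower over all genes tested. Of the 4 tested acyl-CoA binding domain genes besides Dbi, 1 was higher, 1 lower and 2 were not called, with a median log2 fold of −0.26. Acbd5, a peroxisomal membrane protein (152 and 94.0 TPM), was lower at −1.67, and Acbd4 (4.11 and 69.1 TPM) was higher at 3.75. Acbd6 (7.12 and 19.25 TPM) was not called, and Acbd7 had 0 counts in both. All of them lay under Dbi in level. Of 4 tested long-chain acyl-CoA synthetases, none was higher, 2 were lower and 2 were not called (median −0.92). Acsl1, the main liver form, read 197 and 318 TPM (−0.22) and Acsl5 read 136.5 and 169 (−0.58). Acsl3 fell by 1.26 on the log2 scale, from 36.5 to 15.8 TPM.

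Further uptake and carrier genes gave 4 higher, 3 lower and 2 not called of 9 (median 0.86). Scp2, the sterol carrier protein, was highest at 860 and 2160.3 TPM. Its counts ran the other way, at 48130.5 and 37093.5 (log2 fold −0.70). Got2, the mitochondrial aspartate aminotransferase also described as a fatty acid binding protein of the plasma membrane, read 47.95 and 256 TPM (1.53, higher). Lipc, hepatic lipase, read 55.25 and 186 TPM (0.86, not called). Of 11 regulators, 5 were higher, 1 was lower and 5 were not called (median 0.90). The highest by mean TPM were Hnf4a (49.7 and 172 TPM, 0.90), Rxra, the partner of Ppara (9.87 and 101.5 TPM, 2.42, higher), and Nr1h3, a sterol sensor (1.75 and 73.2 TPM, 4.48, higher). Their GC contents were 53.7%, 57.0% and 57.6%. In library 1 Ppara, the fatty acid receptor (12.0 and 41.8 TPM, 0.67, not called), lay above Rxra and Nr1h3. After the GC curve the medians of these 4 lists of synthetases, acyl-CoA binding genes, carriers and regulators were −0.14, 0.14, −0.0012 and 0.10. For the macrophage and endothelial markers read earlier, the medians were 1.13 and 0.95 before the curve and 0.37 and 0.67 after it. A median does not show single genes. Among the regulators Nr1h3 stayed at 1.63, while Rxra was at −0.21 and Hnf4a at −0.43.

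**Figure D5:**
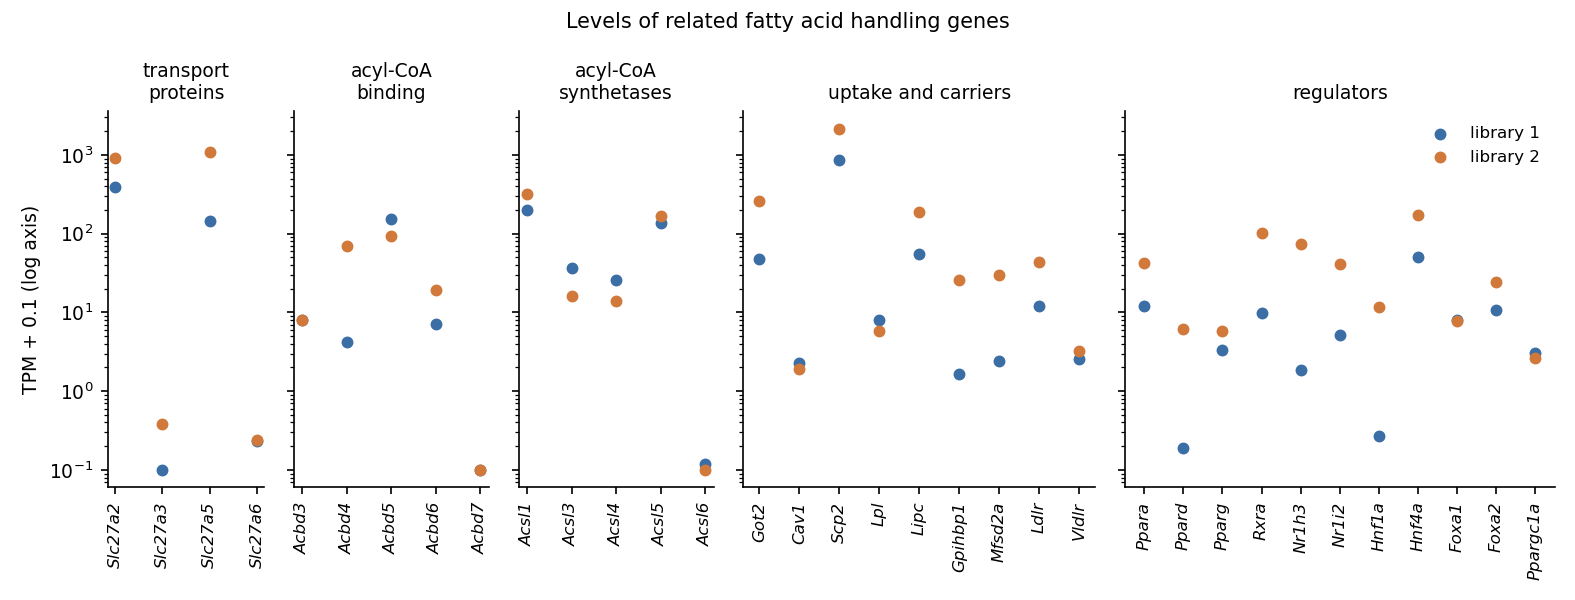
TPM + 0.1 (log axis) of related fatty acid handling genes in library 1 (blue) and library 2 (orange), in 5 panels by role. Slc27a2, Slc27a5 and Scp2 are the highest in library 2, Acsl1 and Acbd5 lie above Slc27a5 in library 1, and Acbd7 lies at the floor of the axis in both libraries.

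Nearest genes in level were also sought for the other members at 1 TPM or more in both libraries. Over the 2 libraries, Fabp2 lay nearest to Akr1c12, Cd36 to Picalm and Dpp4, Fabp5 to Entr1 and Mtfp1, Fabp4 to Max and Egln1, and Fabp7 to Alg8 and Lgr5. The distances in log2(TPM + 0.1) were between 0.0041 (Entr1) and 0.0685 (Egln1). Fabp1 and Dbi had no gene that close, with nearest distances of 0.39 and 0.25.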

How the data were processed

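Each library had a gene and a transcript table. The expected counts, TPM, FPKM, isoform shares in percent, posterior SDs and TPM intervals (other values) are as the authors deposited them, from alignments to mm10 with annotation M4, per the file lists and labels deposited with the libraries. The deposited expected counts are unnormalised estimates, and the deposited TPM and FPKM are normalised to length by the authors. The aligner, quantification tool and strandedness were not given in the sources used here. Symbols, coordinates and sequences came from GENCODE M21 and promoter windows from RefSeq, both on GRCm38; M21 lengths of Cd36 transcripts differ from the deposited ones.

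Expected counts were rounded, and genes reaching 20 counts over both libraries were tested, scaled with TMM in edgeR 4.0.16 (factors 0.818 and 1.22). Folds have a prior count of 0.5. With 1 library a side the quasi-likelihood test has no residual degrees of freedom, so exact binomial tests were used (scipy 1.17.1). They were run on simulated counts that held counting error alone. That run does not cover the difference with GC content between these libraries. The loess curve (span 0.3) used the longest coding M21 transcript of each gene. Size factors came from DESeq2 1.42.0, and figures from matplotlib 3.10.9. Detection means a TPM of at least 1. Motif, shared-run and interval checks were chosen after the files were seen. The members and lists were chosen with earlier results of these data known. Named were all 9 members, their transcripts at 10% or more in either library, up to 3 leading genes of each pathway list and 2 of each marker list, those at 0, and the 2 nearest in level; a few genes under this rule are not reported here. Other transcripts of Dbi, Fabp4, Fabp5 and Fabp7, and Adipoq, Plin1, Vsig4, Kdr, Ppara, Slc27a6, Ist1 and Gm6166, were named after their values were seen. Stellate cell and bile duct lists were also read, led in mean level by Dcn and Ecm1, and by Spp1 and Sox9. In these lists 5 of 8 and 2 of 6 genes reached 1 TPM in both libraries.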

Additional observations from a re-analysis of the deposited data

How the results depend on the processing

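Of 80 values of members' log2 folds under other settings, 61 kept their direction and side of the threshold, 8 passed it, 3 lost it and 8 changed sign. Of those that changed sign, Fabp4 also passed the threshold and Cd36 also lost its call, both after the GC curve. Scaling with DESeq2 size factors, no filter on low counts, a prior count of 5 and leaving out mitochondrial genes changed no member's call; with a summed count of at least 200 Fabp7 was not tested and no other call changed. The signs that changed were Fabp4 under total-count scaling (0.39), Fabp2 (0.18), Fabp4 (0.81) and Fabp7 (0.12) by the ratio of TPM, and Fabp2 (0.52), Fabp4 (1.30), Fabp7 (0.43) and Cd36 (0.095) after the GC curve. With a log2 fold of 0.58 for a call, 7 members were called in place of 4. Of all 12728 genes tested, 9194 were called at that fold in place of 7189. Over all genes the calls went from 7189 to 4730 with at least 200 counts, where fewer genes were tested, and to 2130 after the GC curve. Leaving out a library gave a summed level of 3353 to 10253 TPM. Members at 1 TPM or more in both libraries numbered 7, or 9 in library 2 alone. By counts in place of TPM, 6 in place of 8 genes had 1 transcript at 90% or more. No paired analysis was possible because both libraries belong to 1 group. The 16 counts of Slc27a1 and 44 of Slc27a4 in library 1 limit the precision of their folds.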

Other observations

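For Fabp1, Dbi and Cd36 the deposited TPM lay outside the interval deposited beside it. Fabp1 was listed at 2625 TPM in library 1 with an interval of 2492 to 2559, and at 8641 in library 2 with an interval of 8076 to 8225. Dbi was listed at 584 and 1437 TPM, above upper bounds of 582 and 1389, and Cd36 at 56.65 and 34.9, above 56.2 and 34.5. The other 6 members lay inside their intervals in both libraries. The tables also hold a posterior mean TPM, and for Fabp1 this was 2525 and 8149.95, inside the interval. Among genes with at least 100 counts, the deposited TPM was above the upper bound for 8.31% of 7377 in library 1 and for 14.9% of 9103 in library 2. It was below the lower bound for 194 of these genes in library 1 and for 248 in library 2. Over these genes the median ratio of deposited TPM to posterior mean TPM was 1.02 in library 1 and 1.04 in library 2. Fabp7 in both libraries, and Slc27a1 and Slc27a4 in library 1, had under 100 counts and are not in this background. The level of these intervals is not given in the sources used here.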
